A study of Mus musculus with 8 samples.

Results

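Azacitidine was given to mice that also received ivosidenib, and the gene expression of their leukemic cells was compared with that of mice on ivosidenib without azacitidine. The comparison rests on 4 of the 8 libraries of the series, 2 from mice given both drugs (group AG120_AZA) and 2 from mice given ivosidenib only (group AG120, or AG-120), and covers all 12294 measured genes. The cells were mouse leukemic progenitors labelled I1DN, sorted from transplanted mice as cKit-positive and Cd11b-negative after 5 days of treatment. All groups were transplants of the same leukemia; the labels give no dose, strain or age, and state that cells were isolated per mouse without saying that each library was a separate mouse. P-values therefore measure the spread between libraries, which may be partly technical. The remaining libraries, 2 from vehicle-treated mice (Vehicle) and 2 from mice on azacitidine only (AZA), gave the effect of azacitidine without ivosidenib. RNA was read by QuantSeq, which sequences the 3′ ends of polyadenylated transcripts. Values are log2 CPM, the log2 of counts scaled to a common library total, deposited after normalization between libraries.

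Ivosidenib inhibits mutant IDH1, an enzyme form that makes 2-hydroxyglutarate, a metabolite that blocks dioxygenases including the TET enzymes that oxidise methylated DNA. Azacitidine is a cytidine analogue that is phosphorylated inside cells and incorporated into RNA and, after reduction, into DNA, where it traps DNA methyltransferases. Acute myeloid leukemia keeps some of the hierarchy of normal blood formation, in which progenitors give rise to granule-bearing neutrophils, eosinophils and basophils, to monocytes, to red cells and to platelet-forming megakaryocytes.

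No gene passed the test for a difference between AG120_AZA and AG120. The limma test with Benjamini-Hochberg adjustment over 12294 genes called 0 genes at an adjusted p below 0.05 (0%), and the smallest adjusted p was 0.183, shared by Cd34 and BC035044. Variants of the fit without the mean-variance trend, with vooma weights and with library weights also called 0. Before adjustment, 552 genes had p below 0.05 on the higher side (4.49%) and 685 on the lower side (5.57%). Both AG120_AZA libraries lay above both AG120 libraries for 2934 genes (23.9%) and below both for 2535 genes (20.6%). The difference was above 0 for 51.9% of genes and below 0 for 48.1%, with a median of 0.02 log2 units. Every value that follows is therefore a description of these libraries, and each count of list members is to be read against those shares.

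Spread between replicates was wide. Replicate libraries correlated at r = 0.936 in AG120 and r = 0.929 in AG120_AZA, across genes, which are not independent replicates. AG120 replicate 1 and AG120_AZA replicate 1 correlated at r = 0.941, higher than either pair of replicates. AG120_AZA replicate 2 stood apart: 74 genes were at least 2 log2 units below all 7 other libraries in it, against 0 to 8 in each other library. Leaving out AG120_AZA replicate 1, so that replicate 2 alone stood for the combination, gave 213 called genes, of which 208 were lower. Leaving out AG120 replicate 1 gave 7, and leaving out either of the others gave 0.

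Megakaryocyte and platelet genes were on the higher side in the combination. Of 22 measured genes, 20 had a positive difference, 17 did not overlap between the groups on the higher side (23.9% of all genes) and 13 had an unadjusted p below 0.05 on that side (4.49% of all genes), while none was called after adjustment. The median difference was 1.62 log2 units, beside 0.02 over all genes, and 0.98 when 2 was added to each linear value before the log.

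Pf4, which encodes platelet factor 4, an alpha granule chemokine, had the largest difference of the leading higher genes. Its levels were 9.42 and 7.15 log2 CPM in the AG120 libraries and 11.49 and 11.33 in the AG120_AZA libraries, while Vehicle had 10.42 and 10.96 and AZA had 10.62 and 10.78. The AG120 libraries were the lowest of all 8 and the AG120_AZA libraries the highest. Leading genes were picked among those without overlap between AG120 and AG120_AZA, so that lack of overlap is not a separate result. The difference was 3.12 ± 0.53 (SE; 8.72-fold), with a 95% interval of 1.96 to 4.28 and an adjusted p of 0.384 by limma. AG120 replicate 2 carried much of it: the difference was 1.99 without that library and 4.26 without AG120 replicate 1, when Pf4 was called (adjusted p = 0.000232, limma).

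Treml1, a receptor stored in platelet granules, stood at 2.90 and 1.97 log2 CPM in AG120 and at 4.94 and 5.76 in AG120_AZA, a difference of 2.92 ± 0.55. F2rl2, the thrombin-cleaved receptor PAR3, stood at 3.46 and 2.62 in AG120 and at 5.60 and 5.03 in AG120_AZA, a difference of 2.27 ± 0.46. In both genes the combination libraries were the highest of the 8 libraries. Itgb3, the beta chain of the platelet fibrinogen receptor, was at 7.16 and 5.82 log2 CPM in AG120 and at 8.34 and 8.02 in AG120_AZA, a difference of 1.69 ± 0.39. Gp5, part of the receptor for von Willebrand factor, differed by 1.55 ± 0.39, from 7.29 and 6.06 to 7.98 and 8.46. Nrgn, a calmodulin-binding protein found in platelets as well as neurons, differed by 1.03 ± 0.22, from 7.73 and 7.27 to 8.44 and 8.62.

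**Figure D1:**
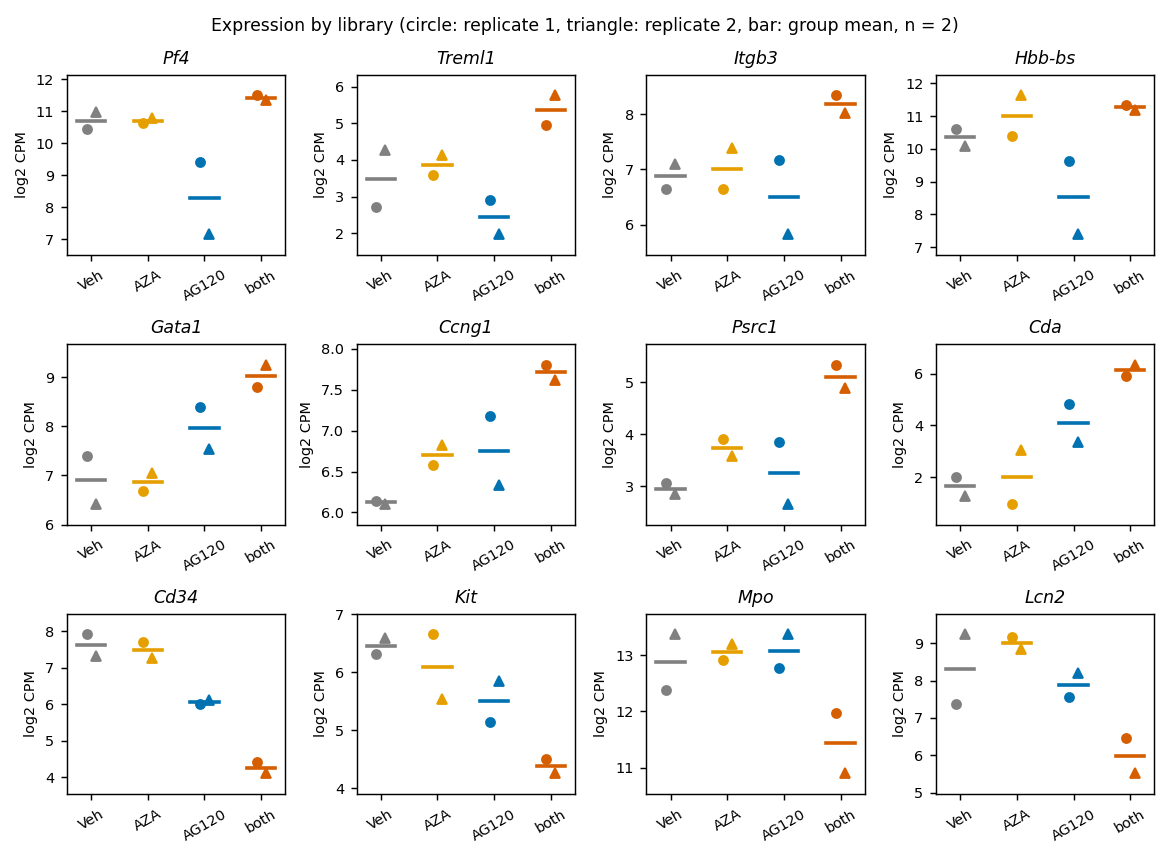
Expression of 12 genes by library, in log2 CPM on the vertical axis, in the Vehicle, AZA, AG120 and AG120_AZA (both) groups; circles are replicate 1, triangles replicate 2, and bars the means of 2 libraries. Pf4 in the AG120 libraries was 9.42 and 7.15 and in the combination 11.49 and 11.33, and Cd34 was lowest in the combination at 4.41 and 4.10.

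The promoters of 3 of the higher genes are shown because each holds AGATAA or its reverse complement TTATCT, the letters of the GATA motif that the blood factors GATA1 and GATA2 bind, upstream of the start site. Each sequence is the 250 bases before the RefSeq start (GRCm38.p6), 5′ to 3′ on the gene's strand, with the match in capitals: F2rl2 at chr13:95696670-95696919 (+), Gp5 at chr16:30310782-30311031 (-) and Hbb-bs at chr7:103827929-103828178 (-).
F2rl2: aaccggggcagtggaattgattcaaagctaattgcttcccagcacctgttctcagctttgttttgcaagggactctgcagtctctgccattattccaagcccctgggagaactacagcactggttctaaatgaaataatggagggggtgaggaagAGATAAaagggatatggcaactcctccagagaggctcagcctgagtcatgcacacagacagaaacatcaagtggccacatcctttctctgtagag
Gp5: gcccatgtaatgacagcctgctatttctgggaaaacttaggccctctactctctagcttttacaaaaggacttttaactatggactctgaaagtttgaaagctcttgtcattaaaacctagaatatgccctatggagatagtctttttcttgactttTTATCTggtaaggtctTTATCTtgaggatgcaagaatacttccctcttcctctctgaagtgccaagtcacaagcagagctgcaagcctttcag
Hbb-bs: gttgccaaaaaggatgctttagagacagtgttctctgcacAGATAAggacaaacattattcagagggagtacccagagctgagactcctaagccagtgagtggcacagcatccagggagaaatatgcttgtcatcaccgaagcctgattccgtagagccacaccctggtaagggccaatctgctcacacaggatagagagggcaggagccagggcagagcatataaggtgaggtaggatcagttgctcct
The match starts 95 bases before the start in F2rl2 and 210 bases before it in Hbb-bs, and Gp5 has matches 93 and 77 bases before it. In Pf4 the match lies after the start. Searching both strands of the 300-base windows (250 bases before to 50 after the start), 5 of 17 megakaryocyte genes (29.4%) and 5 of 19 erythroid genes (26.3%) had a match, against 616 of 9244 measured genes (6.66%). Neutrophil maturation genes, on the opposite side of the comparison, had a match in 24.1% of windows, and none of the 14 primary granule windows had one. A match is a description of the letters and not a binding site.

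Erythroid genes lay on the same side, with smaller differences. Of 30 measured, 26 were positive and 16 did not overlap on the higher side (53.3%, beside 23.9% of all genes), with a median of 0.86. An unadjusted p below 0.05 by limma was found for 5 on that side (4.49% of all genes). Gata1, the factor that red cell and megakaryocyte development requires, was at 8.39 and 7.54 log2 CPM in AG120 and at 8.79 and 9.25 in AG120_AZA. Its difference was 1.06 ± 0.35 (adjusted p = 0.384, limma), and the Vehicle libraries were lower than either group at 7.40 and 6.42. The red cell membrane genes Icam4 and Tspan33 differed by 1.12 ± 0.32 and 1.32 ± 0.40. Sptb, the beta chain of spectrin, went from 0.98 and 0.85 log2 CPM to 3.12 and 3.73. Without AG120 replicate 2 the median of the erythroid genes was 0.34, and without AG120 replicate 1 it was 1.14. Without replicate 2 of either group 1 erythroid gene had an unadjusted p below 0.05 on the higher side.

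Globin genes lay on the higher side too. Hbb-bs, an adult beta globin, was at 9.64 and 7.39 log2 CPM in AG120 and at 11.33 and 11.20 in AG120_AZA, a difference of 2.74 ± 0.58. The Vehicle libraries, at 10.62 and 10.10, lay between the groups. Hba-a1, Hbb-bt and Hba-a2 differed by 2.11 ± 0.58, 1.84 ± 0.54 and 1.64 ± 0.64. Hba-a1 and Hba-a2 are close copies of each other, as are Hbb-bs and Hbb-bt. Reads may be split within each pair in a way the values do not show. Alas1, the housekeeping first enzyme of heme synthesis, went the other way, from 6.06 and 7.63 log2 CPM to 5.60 and 3.87. Over the 17 globin and heme genes 14 were positive. On the higher side 9 did not overlap (52.9%, beside 23.9% of all genes), and on the lower 2 (11.8%, below the 20.6% of all genes). Hbb-bs differed by 1.62 without AG120 replicate 2 and by 3.87 without AG120 replicate 1, when it and Hbb-bt were among the 7 called genes.

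AG120 replicate 2 had the lowest summed level of the 8 libraries for the megakaryocyte list and for the globin and heme list. The summed level of the 22 megakaryocyte genes was 2734 and 1218 CPM in the AG120 replicates, 6219 and 5211 in AG120_AZA, and 3752 to 4196 in the other 4 libraries. The sum over the globin and heme genes was 2047 and 999 CPM in AG120, against 4217 and 4029 in AG120_AZA and 2152 to 5214 in Vehicle and AZA. For the erythroid list the sum was 1878 and 1146 CPM in AG120, 2072 and 2616 in AG120_AZA and 463 to 705 in Vehicle and AZA. Without AG120 replicate 2 the median difference of the megakaryocyte genes was 0.87, with 7 members at an unadjusted p below 0.05 on the higher side, and without any other of the 4 libraries it lay between 1.56 and 1.83. The macrophage complement gene C1qa was at 3.16 and -0.27 log2 CPM in AG120, the second a very low value, and at 4.11 and 4.04 in AG120_AZA. Of the 30 monocyte and macrophage genes, 16 were positive and 14 negative, with a median difference of 0.06. That median was -0.14 without AG120 replicate 2 and -0.19 over members with a mean of at least 3 log2 CPM. Summed levels of the list were 967 and 1040 CPM in AG120 and 975 and 957 in AG120_AZA. The part of other cells in these results was not tested. In bulk RNA, more cells of a type and more RNA per cell cannot be told apart.

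**Figure D2:**
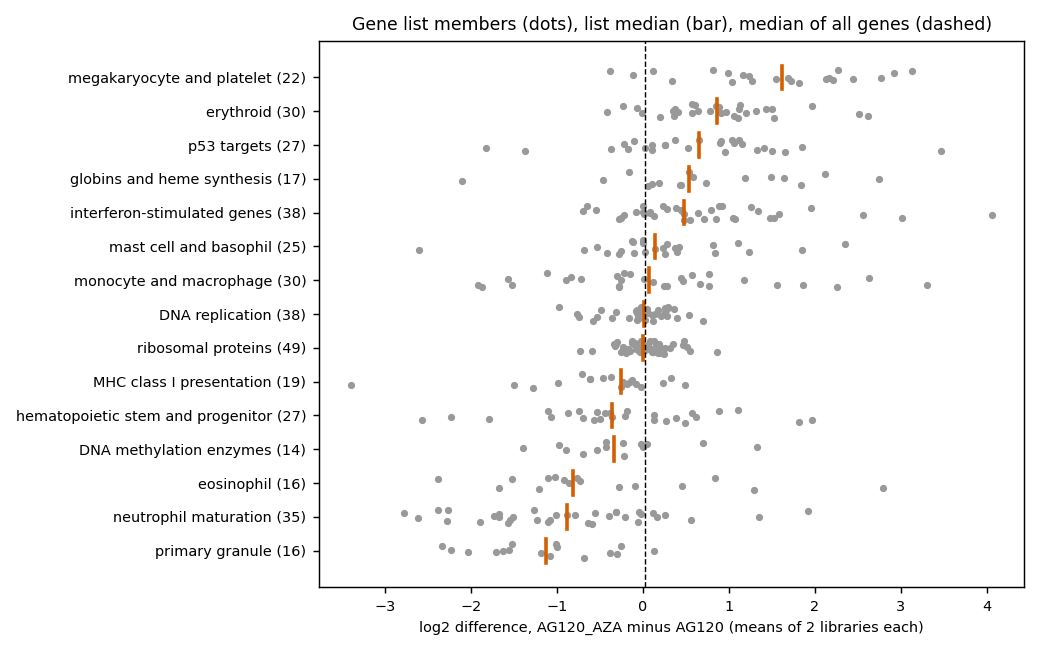
Log2 difference, AG120_AZA minus AG120, for the members of 15 gene lists (dots, number measured in parentheses), with the median of each list as a bar and the median of all genes as a dashed line. The megakaryocyte list had the highest median of those plotted, 1.62, and the primary granule list the lowest, -1.13.

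Primary granule genes were on the lower side in the combination. These genes encode the proteins that myeloid progenitors pack into their first granules. Of 16 measured, 15 were negative, 11 did not overlap on the lower side (20.6% of all genes) and 12 had an unadjusted p below 0.05 on that side (5.57% of all genes), with a median difference of -1.13 and none called. Mpo, myeloperoxidase, was at 12.76 and 13.37 log2 CPM in AG120 and at 11.97 and 10.90 in AG120_AZA, and Vehicle had 12.38 and 13.37. The AG120_AZA libraries were the lowest 2 of the 8, and the difference was -1.63 ± 0.39 (adjusted p = 0.384, limma). A level of 13.37 is the maximum of every library in the deposited table, so differences at the top of the range are compressed.

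The serine proteases Prtn3 and Prss57 differed by -2.03 ± 0.66 and -1.52 ± 0.42. Prtn3 was at 7.68 and 9.81 log2 CPM in the AG120 replicates, and at 7.32 and 6.10 in AG120_AZA. Ms4a3, a marker of granulocyte and monocyte progenitors, was at 9.62 and 10.24 in AG120 and at 9.32 and 8.37 in AG120_AZA. Srgn, the proteoglycan that holds granule proteases, differed by -1.18 ± 0.37, and Calr, a chaperone that Mpo folding requires, by -1.01 ± 0.29. In Mpo, Prtn3, Ms4a3, Srgn, Calr and Prss57 alike, AG120 replicate 2 was the higher AG120 library and AG120_AZA replicate 2 the lower combination library. The median of the list was -0.70 without AG120_AZA replicate 2 and -0.78 without AG120 replicate 2, against -1.38 and -1.59 without replicate 1 of AG120 and of AG120_AZA. In each of the first pair of cases 2 members had an unadjusted p below 0.05, and without the trend of variance on expression level 4 had.

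Genes of neutrophil maturation, which come on after the primary granules, were lower too. Of 35 measured, 29 were negative and 18 did not overlap on the lower side (51.4%, beside 20.6% of all genes), with a median of -0.89. An unadjusted p below 0.05 by limma was found for 13 on that side (5.57% of all genes). Lcn2, the iron-binding lipocalin of secondary granules, was at 7.55 and 8.21 log2 CPM in AG120 and at 6.46 and 5.51 in AG120_AZA, a difference of -1.89 ± 0.50. Hp, haptoglobin, went from 5.83 and 8.56 to 4.66 and 4.49, and Wfdc21 from 5.07 and 6.84 to 3.91 and 3.44. The AG120 replicates differed from each other in Hp by more than AG120 replicate 1 differed from the combination. Pglyrp1, an antibacterial granule protein, differed by -1.24 ± 0.39, and Anxa1, annexin A1, by -1.55 ± 0.52. Without AG120_AZA replicate 2 the median of the list was -0.36, and in the other 3 cases it lay between -1.05 and -1.37. The count of members with an unadjusted p below 0.05 on the lower side was 1 without the trend of variance on expression level, 3 without AG120_AZA replicate 2 and 6 without AG120 replicate 2. The summed level of the list was 6261 and 10480 CPM in AG120 and 5266 and 2338 in AG120_AZA, and in Vehicle it ranged from 5182 to 20200.

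Eosinophil genes were mixed and rested on AG120_AZA replicate 2. Mgl2, a C-type lectin, was at 5.87 and 6.98 log2 CPM in AG120 and at 5.01 and 3.07 in AG120_AZA, a difference of -2.39 ± 0.63. The granule genes Prg2 and Epx overlapped between the groups, with Prg2 at 10.00 and 11.02 in AG120 and at 10.05 and 8.74 in AG120_AZA. The list had a median of -0.81 over 16 genes, and of 0.01 without AG120_AZA replicate 2. Mast cell and basophil genes had a median of 0.14 over 25 genes, which was 0.44 without AG120 replicate 1 and -0.09 without AG120 replicate 2.

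**Figure D3:**
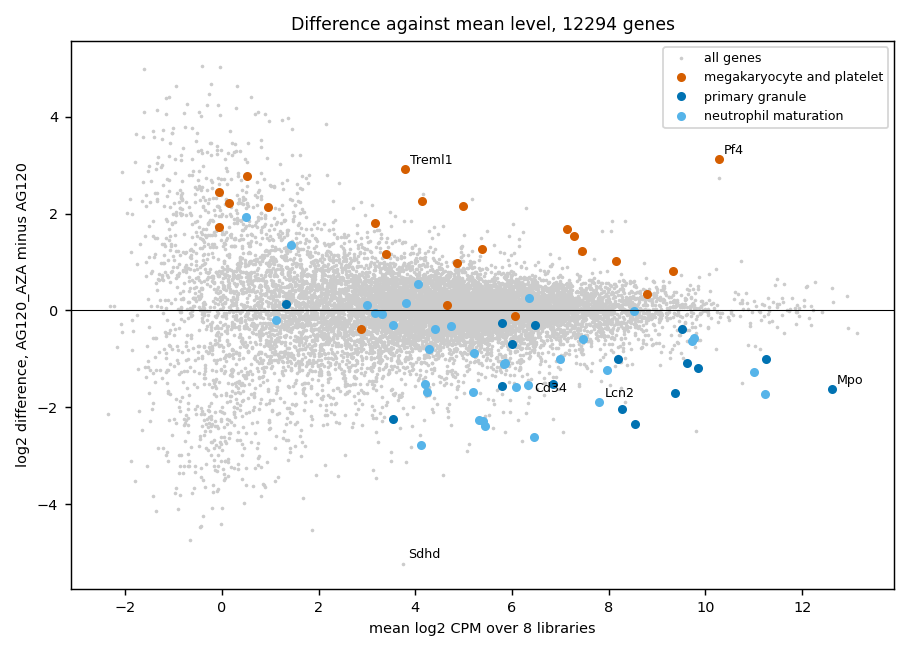
Log2 difference, AG120_AZA minus AG120, against the mean log2 CPM over 8 libraries for 12294 genes (grey), with megakaryocyte, primary granule and neutrophil maturation genes coloured. The spread of the grey points widens below a mean of about 3, while Pf4 (3.12) and Mpo (-1.63) are among the abundant genes.

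Cd34 and Kit, which mark immature blood cells, were lowest in the combination. Cd34 was at 6.0 and 6.11 log2 CPM in AG120 and at 4.41 and 4.10 in AG120_AZA, while Vehicle had 7.91 and 7.31 and AZA 7.72 and 7.28. The replicates lay close together in both groups compared, and no AG120_AZA library reached any other. Lack of overlap with AG120 was a condition for naming Cd34 among the leading genes. The difference was -1.80 ± 0.27 (3.48-fold lower), with a 95% interval of -2.38 to -1.21 and an adjusted p of 0.183 by limma. It kept to between -1.65 and -1.95 with each of the 4 libraries left out. Kit, the receptor by which the cells were sorted, was at 5.15 and 5.84 in AG120 and at 4.51 and 4.26 in AG120_AZA, a difference of -1.11 ± 0.37. Its Vehicle levels were 6.31 and 6.59. Itgam, which encodes CD11b and which the sort selected against, was low and overlapped between the groups, at 2.50 and 3.76 in AG120 and 3.28 and 2.85 in AG120_AZA.

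Stem and progenitor genes as a list, with Cd34 and Kit counted in it, did not share a direction. Of 27 measured, 11 were positive and 16 negative, with a median of -0.36 that was -0.09 without AG120_AZA replicate 2 and -0.19 without AG120 replicate 2. Ly6e, a surface protein of the Ly6 family, was lower by 0.75 ± 0.19, from 10.03 and 10.29 log2 CPM to 9.47 and 9.36. Slamf1, the receptor CD150 of stem cells and megakaryocyte progenitors, differed by 1.97 ± 0.54, from 2.90 and 1.80 to 4.04 and 4.59. Tal1, a partner of GATA1, differed by 0.88 ± 0.33.

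Of the leading genes outside these lists, 7 higher ones were Tgm2, Capn3, Pidd1, Gnaz, Tpm4, Ddah2 and Tmem158. Tgm2, transglutaminase 2, was at 5.66 and 4.76 log2 CPM in AG120 and at 6.71 and 7.29 in AG120_AZA, a difference of 1.80 ± 0.32. Gnaz, a G protein alpha subunit abundant in platelets, went from 3.37 and 1.86 to 4.41 and 5.61. The calpain gene Capn3 had closer replicates, at 1.66 and 1.61 in AG120 and 3.65 and 3.96 in AG120_AZA. On the lower side, Unc93b1, which carries nucleic acid-sensing Toll-like receptors to endosomes, was at 5.96 and 6.73 in AG120 and at 5.01 and 3.85 in AG120_AZA, a difference of -1.92 ± 0.38. Edem2, which acts in the disposal of misfolded glycoproteins, differed by -1.50 ± 0.29, and Galns, a lysosomal sulfatase, by -2.51 ± 0.52. Plac8, abundant in myeloid progenitors, went from 10.11 and 11.00 to 9.16 and 6.99, and its difference was -1.40 without AG120_AZA replicate 2 against -3.56 without replicate 1. Clec4e, Dipk1b, Dio2 and Chst11 differed by -1.53, -1.49, -1.70 and -1.38. Agbl5 (-1.85) and Ost4 (-2.10) overlap on chromosome 5, on opposite strands at 30888694-30906965 and 30905885-30907788 (mm10), and the strand setting of the counting was not given in the sources used here, so these values are uncertain. All of these genes had an adjusted p of 0.384 by limma.

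Target genes of p53, the factor that DNA damage activates, were on the higher side. Of 27 measured, 21 were positive, with a median of 0.65. On the higher side 13 did not overlap (48.1%, beside 23.9% of all genes), and on the lower 2 (7.4%, below the 20.6% of all genes). An unadjusted p below 0.05 by limma was found for 6 on the higher side (4.49% of all genes). Pidd1, a p53-induced gene outside the list whose protein activates caspase-2, differed by 1.55 ± 0.31, from 4.18 and 4.35 log2 CPM to 5.47 and 6.16. Psrc1, a microtubule protein, was at 3.86 and 2.66 in AG120 and at 5.33 and 4.88 in AG120_AZA, and differed by 1.85 ± 0.44. Ccng1, cyclin G1, differed by 0.95 ± 0.27, from 7.18 and 6.33 to 7.80 and 7.62. Cdkn1a, the cell cycle inhibitor p21, went from 5.35 and 4.07 to 6.07 and 6.64, and Aen, a nuclease, from 5.90 and 5.53 to 6.39 and 6.84. The Vehicle levels of Ccng1 were lower than either, at 6.14 and 6.11. The median of the list stayed between 0.46 and 0.64 with any of the 4 libraries left out, while the count with an unadjusted p below 0.05 on the higher side was 3 without AG120 replicate 2 and 2 without AG120_AZA replicate 2. Genes of the DNA damage response had a median of 0.08 over 21 members, and DNA replication and mitosis genes had medians of 0.01 over 38 and 0.06 over 30. With each of the 4 libraries left out, the medians of these 3 lists lay between -0.13 and 0.22.

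Interferon-stimulated genes, which azacitidine can induce through transcripts of endogenous repeats, had a median of 0.48, and of 0.12 over members with a mean of at least 5 log2 CPM. Of 38 measured, 30 were positive. On the higher side 18 did not overlap (47.4%, beside 23.9% of all genes), and on the lower 3 (7.9%, below the 20.6% of all genes). An unadjusted p below 0.05 by limma was found for 6 on the higher side (4.49% of all genes). With only genes of a mean of at least 3 log2 CPM tested, it was found for 2 of 20 members on that side. Oasl1, an antiviral translation regulator, was at 1.72 and 1.67 log2 CPM in AG120 and at 3.03 and 3.52 in AG120_AZA, a difference of 1.58 ± 0.50. Isg15, the ubiquitin-like modifier, went from 1.66 and 2.09 to 3.42 and 2.85, and the GTPase gene Igtp from 3.52 and 3.69 to 4.31 and 5.00. On azacitidine alone, AZA minus Vehicle, the median of the list was 0.64 and 32 of 38 genes were positive. Sensors of double-stranded RNA and of DNA had a median of 0.08 over 13 genes.

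Class I antigen presentation, which interferon also raises, was on the lower side. Of 19 genes measured, 3 were positive. On the lower side 9 did not overlap (47.4%, beside 20.6% of all genes), and on the higher 2 (10.5%, below the 23.9% of all genes). The median was -0.26, and it was -0.57 without AG120 replicate 1 and -0.14 without AG120 replicate 2. B2m, the light chain of class I molecules, was at 10.72 and 11.27 log2 CPM in AG120 and at 10.34 and 10.24 in AG120_AZA, a difference of -0.71 ± 0.21. Vehicle stood at 10.78 and 10.98 and AZA at 11.41 and 11.36. Psmb9, an immunoproteasome subunit, was at 6.67 and 7.02 in AG120 and at 6.28 and 4.40 in AG120_AZA. Tap2, a subunit of the peptide transporter, was at 5.72 and 5.60 in AG120, 4.86 in AG120_AZA replicate 1 and -0.34 in AG120_AZA replicate 2, so its difference of -3.40 ± 1.17 rested on that library and was -0.80 without it.

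The enzymes that handle azacitidine itself were measured almost completely. Cda, cytidine deaminase, which inactivates the drug, was at 4.83 and 3.35 log2 CPM in AG120 and at 5.92 and 6.33 in AG120_AZA, a difference of 2.04 ± 0.68 (4.10-fold; adjusted p = 0.384, limma). Vehicle levels were 2.03 and 1.27 and AZA levels 0.98 and 3.07, so the combination was the highest group. It differed by 1.30 without AG120 replicate 2 and by 2.77 without AG120 replicate 1. Of the 8 breakdown genes 6 were positive and 5 did not overlap on the higher side (62.5%, beside 23.9% of all genes). Among these 5 were the nucleotidases Nt5c3 (0.60 ± 0.26) and Nt5c2 (0.61 ± 0.28). Samhd1, which degrades deoxynucleotides, was at 6.29 and 6.08 in AG120 and at 6.55 and 6.37 in AG120_AZA. Of the 13 genes of entry and activation 5 were positive. On the lower side 2 did not overlap (15.4%, below the 20.6% of all genes), and none on the higher. Slc28a2, a nucleoside carrier, went from 2.80 and 4.80 to 2.32 and 0.85, and Cmpk1, the kinase that forms the diphosphate, from 5.45 and 5.34 to 4.90 and 4.35. Uck2, which adds the first phosphate, stood at 7.26 and 7.20 in AG120 and 7.23 and 7.60 in AG120_AZA.

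Genes of DNA methylation and demethylation, which include the methyltransferases that azacitidine traps, were mostly on the lower side, with 11 of 14 negative. On that side 5 did not overlap (35.7%, beside 20.6% of all genes), and on the other 2 (14.3%, beside 23.9%). An unadjusted p below 0.05 by limma was found for 1 member on each side, and the median was -0.34. That median was -0.42 without AG120 replicate 1 and lay between -0.19 and -0.16 without any other of the 4 libraries. Dnmt1, the maintenance methyltransferase, was at 7.92 and 8.11 log2 CPM in AG120 and at 7.62 and 7.54 in AG120_AZA, a difference of -0.44 ± 0.21 with a 95% interval of -0.90 to 0.02. Hells, a chromatin remodeller that maintenance methylation needs, differed by -0.70 ± 0.43 and overlapped. Gadd45g, a stress gene linked to demethylation, differed by 1.32 ± 0.42, from 6.19 and 4.93 to 6.61 and 7.15, and also by 1.17 between AZA and Vehicle. Idh1, whose mutant form ivosidenib inhibits, was at 8.62 and 8.25 in AG120 and at 8.53 and 6.94 in AG120_AZA. Its difference of -0.70 ± 0.42 became 0.10 without AG120_AZA replicate 2, and the table does not separate mouse Idh1 from any mutant transgene. Phgdh, the first enzyme of serine synthesis, which can also make 2-hydroxyglutarate, differed by -0.60 ± 0.23.

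Whether azacitidine acted differently with and without ivosidenib was tested as the difference of the differences. Here too limma called 0 of 12294 genes (0%), with the smallest adjusted p at 0.196 for Xlr4c, a gene with a mean below 3 log2 CPM. An unadjusted p below 0.05 was found for 365 genes on the higher side (2.97%) and 400 on the lower (3.25%), 6.22% together. Azacitidine alone against vehicle called 0 genes as well, with 432 at an unadjusted p below 0.05 (3.51%), 1.92% on the higher and 1.59% on the lower side.

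Megakaryocyte, neutrophil maturation, primary granule and eosinophil genes had unlike medians with and without ivosidenib, and no member passed the adjusted test of the difference. The list medians of the difference of the effects were 0.84, -2.32, -1.45 and -1.92 in that order, beside 0.02 over all genes. Such a median need not equal the gap between the medians given below for a list. For megakaryocyte genes the median of AZA minus Vehicle was 0.10, beside 1.62 for AG120_AZA minus AG120, and 10 of 22 had an unadjusted p below 0.05 for a higher effect with ivosidenib. That count was 4 without the trend of variance on expression level and between 2, without AG120 replicate 2, and 12 with 1 of the 8 libraries left out. Pf4 differed by 0.00 between AZA and Vehicle, and the difference of its effects was 3.12 ± 0.75 (adjusted p = 0.794, limma). Without AG120 replicate 1 it was 4.26 and Pf4 was the gene called higher. Neutrophil maturation genes had a median of 0.82 for azacitidine alone, with 31 of 35 positive, against -0.89 on ivosidenib. Of them 18 had an unadjusted p below 0.05 by limma for a lower effect with ivosidenib (10 without that trend). Their median difference of the effects was -1.43 without Vehicle replicate 1 and -1.74 without AG120_AZA replicate 2. Summed levels of this list were 5182 and 20200 CPM in Vehicle and 22690 and 16430 in AZA, so the AZA libraries lay around Vehicle replicate 2. Stfa2, a cysteine protease inhibitor of a family of close copies that may share reads, had 2.03 and 4.22 log2 CPM in the Vehicle libraries, 7.50 and 6.01 in AZA, 4.65 and 4.08 in AG120 and 3.01 and 2.37 in AG120_AZA. The difference of its effects was -5.31 ± 0.94, and -6.40 without Vehicle replicate 2, when it was called. Primary granule genes had medians of 0.19 and -1.13, and 9 of 16 had an unadjusted p below 0.05 on the lower side, a count of 1 without that trend or without Vehicle replicate 1. The Vehicle replicates differed in these genes, with summed levels of 11050 and 20050 CPM for the primary granule list, and that spread enters these contrasts as well. Eosinophil genes had a median of 1.65 for azacitidine alone and -0.81 on ivosidenib. The difference of the effects was negative in all 16, and its median lay between -2.82 and -1.38 with 1 of the 8 libraries left out. That median was -1.92 over the 7 members with a mean of at least 3 log2 CPM. The summed level of the eosinophil list was 139 CPM for Vehicle replicate 1 and 558 CPM for Vehicle replicate 2. AZA replicate 1 had 495.5 CPM and AZA replicate 2 had 339.9 CPM, so both AZA sums lay between the Vehicle replicates. The median level over the 16 genes was higher on azacitidine alone but low throughout. It was 0.97 and 1.89 log2 CPM for the Vehicle libraries, against 2.68 and 2.85 for the AZA libraries.

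**Figure D4:**
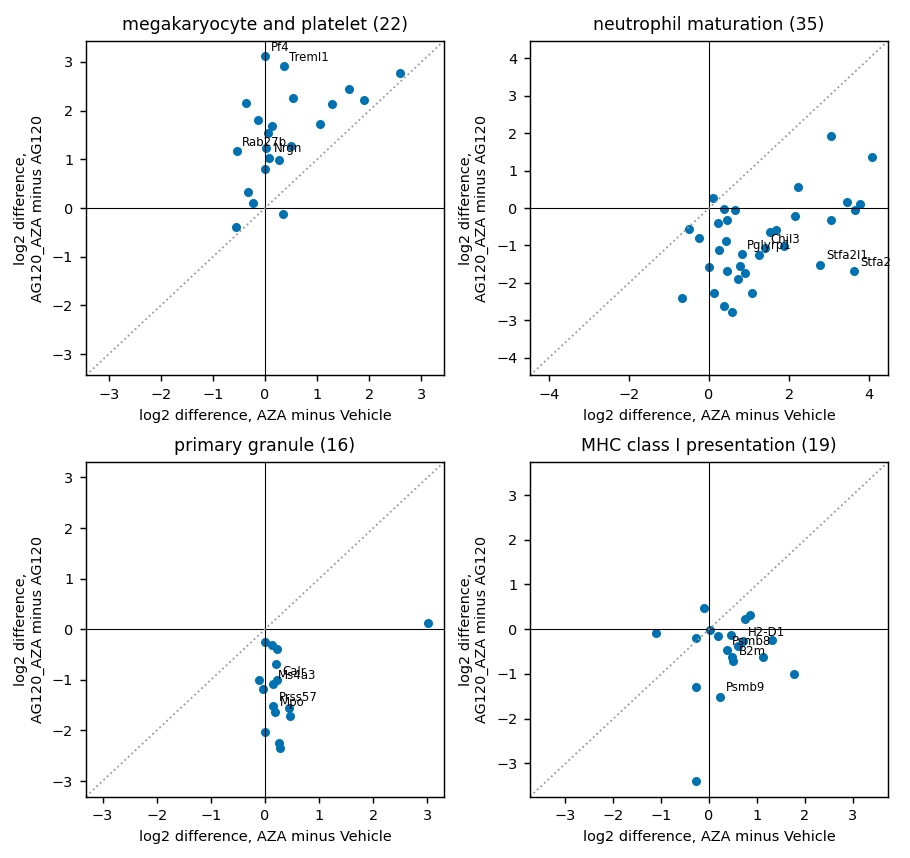
For 4 gene lists, the log2 difference of AG120_AZA minus AG120 (vertical) against that of AZA minus Vehicle (horizontal); each point is a gene and the dotted line marks equal differences. Megakaryocyte genes lie mostly above the line, with medians of 1.62 and 0.10, and neutrophil maturation genes below it, with medians of -0.89 and 0.82.

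The median of the class I genes had opposite signs in the 2 settings, at 0.46 for AZA minus Vehicle and -0.26 on ivosidenib. Of the 19 genes, 12 were positive for AZA minus Vehicle and negative on ivosidenib, as were 2865 of all 12294 genes. For B2m the difference of the effects was -1.21 ± 0.30. Cd34 did not share its azacitidine difference between settings, at -0.11 for AZA minus Vehicle and -1.80 on ivosidenib, a difference of -1.69 ± 0.38. Immediate early and heat shock genes, taken as 1 list of 25, had medians of 0.36 and -0.06. The sign of the second turned with single libraries: it was 0.48 without AG120 replicate 1, 0.17 without AG120_AZA replicate 1 and -0.60 without AG120 replicate 2. Fos, a subunit of the AP-1 factor, had Vehicle levels of 4.45 and 3.73 log2 CPM, with 5.22 and 4.95 in AZA, 5.26 and 4.38 in AG120 and 3.40 and 3.78 in AG120_AZA. Rhob, a small GTPase of endosomes, differed by 0.81 for azacitidine alone and -0.97 on ivosidenib. In the other direction, Neat1, a long noncoding RNA that builds nuclear paraspeckles, differed by -0.75 for azacitidine alone and by 1.05 on ivosidenib. Irf8, the factor that directs progenitors to monocytes and dendritic cells, was at 5.99 and 7.23 in Vehicle, 5.32 and 5.39 in AZA, 3.33 and 3.52 in AG120 and 4.30 and 4.07 in AG120_AZA. Adding azacitidine therefore went with a lower Irf8 level next to vehicle (-1.26) and a higher one next to ivosidenib (0.76). Each of these genes had an adjusted p of 0.794 for the difference of the effects by limma.

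**Figure D5:**
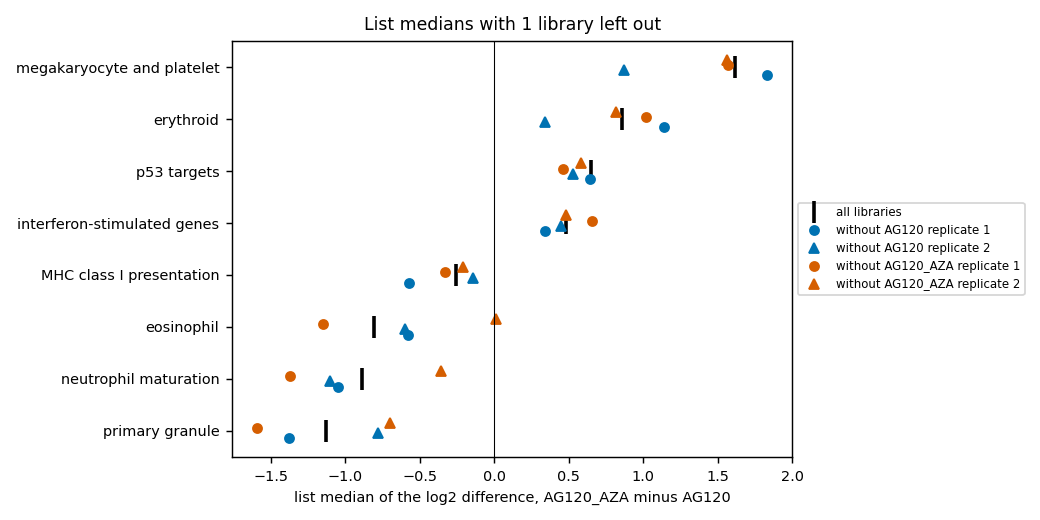
Median log2 difference, AG120_AZA minus AG120, of 8 gene lists with all libraries (black bar) and with each of the 4 libraries left out. The megakaryocyte median was 0.87 without AG120 replicate 2, and the neutrophil median was -0.36 without AG120_AZA replicate 2.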

How the data were processed

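Gene expression was measured by QuantSeq 3′ mRNA sequencing in 8 libraries, 2 in each of 4 groups. The submitters' processing notes name HISAT2 2.1.0 with build mm10, featureCounts of Subread 1.6.3, and edgeR 3.28.1 and limma 3.42.2 under R 3.6.2, after bcl2fastq 2.17.1.14 and cutadapt 1.14. The gene annotation was not given in the sources used here. The authors deposited log2 CPM values for 12294 genes, normalized between libraries: every library had a maximum of 13.37 and linear sums of 999525 to 999562, so library totals and any change in total RNA are lost, and the depth is unknown. No column of per-sample values was left unused.

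Differences of group means were tested on the deposited log2 values with limma 3.58.1 in R 4.3.3 (lmFit, then eBayes allowing a trend of the variance with the mean), with 4 group means fitted to all 8 libraries (4 residual and 7.06 prior degrees of freedom). Two-sided p-values were adjusted by Benjamini-Hochberg over all genes and called below 0.05. The procedure was tested on simulated data. The difference of the azacitidine effects was a contrast of the same fit. Errors are standard errors from limma.

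The comparison, the 39 gene lists and the marker sets were chosen with earlier results of these data known. Of 996 listed symbols 823 were measured, 26 through an older symbol, and lists are described by counts and medians with no set test. As no gene was called, genes were named as the 12 smallest unadjusted p-values per direction (8 for the difference of effects) among genes with a mean of at least 3 log2 CPM and no overlap between groups, up to 6 members per list by smallest unadjusted p, members of the drug, methylation and IDH lists, and the sort markers. Unnamed gene models were skipped. Gene positions come from GENCODE M21, which held 12064 of the 12294 symbols (98.1%), and promoters from RefSeq (GRCm38.p6), which held 9244. Alternatives were other filters, scalings, weights, a pseudocount of 2, a replicate block and each library left out. Some listed genes are counted in their lists but not reported here by name.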

Additional observations from a re-analysis of the deposited data

How the results depend on the processing

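For AG120_AZA against AG120, 0 genes were called without the trend, with only the compared groups, with mean minimums of 3 or 5, a pseudocount of 2, median centring, quantile normalization, vooma or library weights and the replicate block, with 550 to 1457 genes at an unadjusted p below 0.05. With each library left out, calls ranged from 0 to 213, with 0 to 6 higher and 0 to 208 lower: 213 without AG120_AZA replicate 1, 7 without AG120 replicate 1 and 0 in the other 6 cases. Where a group keeps 1 library, that library is assumed to vary like the other groups. Unadjusted counts were 420 without AG120 replicate 2 and 463 without AG120_AZA replicate 2, against 1237. For the difference of the azacitidine effects, calls ranged from 0 to 29 with a library left out, 0 to 1 higher and 0 to 29 lower (29 without AG120_AZA replicate 1, 2 without Vehicle replicate 2, 1 without either AG120 replicate), and were 0 otherwise. AZA against Vehicle gave 2 calls without the trend, 1 with only the groups compared and 0 to 1 with a library left out (1 without AG120 replicate 2), all higher. The cause of these shifts was not tested. The replicate numbers did not pair the samples (correlations of deviations between groups from -0.11 to 0.19), and the block left calls at 0, with 1259 genes at an unadjusted p below 0.05.

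Of 112 genes followed in the main comparison 84 kept their direction and side of the threshold in every alternative, 23 were called in at least 1 and 7 changed sign in at least 1. The 23 were Pf4, Hbb-bs and Hbb-bt without AG120 replicate 1, and, without AG120_AZA replicate 1, Cd34, Tgm2, Treml1, Pidd1, Gnaz, Unc93b1, Galns, Agbl5, Ost4, Plac8, Mpo, Ms4a3, Srgn, Anxa1, Mgl2, Psmb9, Tap2, Uckl1, Idh1 and Idh3a. Over the libraries left out, the values of those 7 ran from -2.15 to 0.12 for Uckl1, -0.0005 to 0.37 for Uck2, -1.08 to 0.25 for Rrm2b, -0.99 to 0.20 for Dctd, -0.56 to 0.11 for Dut, -1.50 to 0.10 for Idh1 and -0.70 to 0.57 for Itgam. Of 16 list medians 7 moved by less than the spread between replicates in every alternative. Quantile normalization and median centring moved none beyond it. The deposited values were already normalized between libraries, with all-gene medians of 4.35 to 4.36, so these settings could change little. The counts of members without overlap or with an unadjusted p below 0.05 with each library left out were added after the data were seen.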

Other observations

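Energy and growth programmes showed small differences between AG120_AZA and AG120. Ribosomal protein genes had a median difference of -0.00 over 49 genes, nuclear genes of oxidative phosphorylation -0.04 over 45, cholesterol synthesis genes 0.06 over 24 and MYC targets and ribosome biogenesis genes 0.15 over 40. Genes of hypoxia and glycolysis had a median of -0.18 over 32, with 6 members at an unadjusted p below 0.05 on the lower side (5.57% of all genes) and 3 on the higher (4.49%). That median was 0.04 without AG120 replicate 2, with 0 members at an unadjusted p below 0.05 on either side by limma, and -0.45 without AG120 replicate 1. Pgam1, phosphoglycerate mutase, was at 9.15 and 10.15 log2 CPM in AG120 and at 8.87 and 8.67 in AG120_AZA. Pkm, pyruvate kinase, went from 9.33 and 10.04 to 9.19 and 8.95, and Gpi1, glucose phosphate isomerase, from 8.79 and 9.57 to 8.52 and 8.41. In all 3 genes AG120 replicate 2 was the highest of the 4 libraries. Higd1a, a hypoxia-induced mitochondrial protein, differed by 0.64, from 8.28 and 7.96 to 8.55 and 8.96. None of these genes was called by limma.

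Cytokine receptor genes had a median of -0.36 over 28, with 9 positive. The median was -0.12 without AG120 replicate 2, -0.19 without AG120_AZA replicate 2 and -0.57 without AG120 replicate 1. Csf3r, the receptor for granulocyte colony-stimulating factor, was at 2.03 and 3.70 log2 CPM in AG120 and at 1.41 and -0.34 in AG120_AZA. Il6st, the signalling chain shared by interleukin-6 family receptors, went the other way, from -1.90 and -0.27 to 1.31 and 2.93. Class II antigen presentation genes on the dendritic list separated AG120 replicate 2 from the rest: H2-Aa was at 5.58 and 2.94 in AG120 and at 5.73 and 5.78 in AG120_AZA, and Cd74 at 6.39 and 3.99 and at 6.16 and 6.31. Of T and NK cell markers 8 of 25 were measured. Thy1 among them was highest in AG120 replicate 2, at 6.83, against 4.16 in AG120 replicate 1 and 3.33 and 2.03 in AG120_AZA. Of B cell markers 3 of 20 were measured, with a summed level of 12.9 to 38.7 CPM over the 8 libraries.

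Genes with few CpG dinucleotides in their promoter had wider differences than genes with many. Among genes with a mean of at least 3 log2 CPM, the median absolute difference between AG120_AZA and AG120 was 0.418 for 402 genes with 0 to 4 CpG in the 300-base window and 0.252 for 1666 genes with 30 or more. An unadjusted p below 0.05 was found for 22.1% of the first set and 10.3% of the second. The same order held between AZA and Vehicle, with median absolute differences of 0.235 and 0.179. The median signed differences on AG120 were 0.054 and -0.004. Median expression in the 2 sets was 5.10 and 5.34 log2 CPM, and the part of expression level was not tested. Germline genes that DNA methylation silences were mostly not in the table: 4 of 30 were measured. Xlr4c, of an X-linked family of close copies, was at 3.16 and 2.31 in Vehicle, -2.25 and -3.43 in AZA, 1.28 and 0.56 in AG120 and 3.60 and 3.35 in AG120_AZA. The difference of its effects was 8.13 ± 1.12 (adjusted p = 0.196, limma). Its mean level was below 3 log2 CPM and both AZA values were below 0, so the size of that difference rests largely on very low values.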
